A study of Mus musculus with 12 samples.

Results

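10 genes that mark endothelial cells across vessel types were followed in 12 liver RNA libraries: Pecam1, Cdh5 and Emcn at the cell surface and junctions, the vascular endothelial growth factor (VEGF) receptors Flt1 and Kdr, the receptors Tie1 and Tek with the phosphatase Ptprb, the co-receptor Eng, and the secreted protein Egfl7. They were picked by gene symbol, with earlier results of these data known. All 10 of the 16970 genes in the deposited table were found, and all 10 were among the 10805 genes that passed the filter on low values. Mice with cholestasis, an impaired flow of bile, formed 4 groups of 3 libraries of liver RNA. MDR_H livers were taken to be from Abcb4-/- mice, which lack the transporter that moves phospholipid into bile, aged 60 days and dosed for 21 days with 100 mg/kg of HDCA (hyodeoxycholic acid, which is itself a bile acid). MDR livers were taken to be from Abcb4-/- mice of the same age without HDCA, though the description gives the age, 60 days, beside the dosed mice. The titles read only MDR and MDR_H, and this reading rests on the series description naming no other second model. BDL_H livers came from mice with a bile duct ligation of 7 days that received HDCA at 100 mg/kg over 4 days, beginning 3 days after surgery. BDL livers had the same ligation without HDCA. Wild-type or unoperated livers were not analysed here, so the values give differences between cholestatic groups and not from a healthy liver. The labels do not say whether each library is a separate mouse, and a p-value here therefore reflects library-to-library spread that could be technical.

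Endothelial cells line every blood vessel, and in liver most of them form the wall of the sinusoids, the porous capillaries between portal and central veins. Their contacts are held by VE-cadherin (the product of Cdh5) and PECAM-1. Their growth and stability are set by VEGF acting on VEGFR2 (the product of Kdr), with VEGFR1 (the product of Flt1) as a tight-binding decoy, and by angiopoietins acting on TIE2 (the product of Tek), which TIE1 modulates and the phosphatase VE-PTP (the product of Ptprb) restrains. In bulk liver RNA, fewer endothelial cells and less RNA per endothelial cell cannot be told apart.

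Values are FPKM, read counts scaled by gene length and library size, as the authors deposited them. The reads behind them, recovered from the steps of the FPKM values, came to 34260782 to 40427855 per library, and a member had between 54 reads (Emcn in BDL replicate 1) and 5411 reads (Ptprb in MDR_H replicate 3). A pair of libraries stood apart over the whole table: the median log2(FPKM + 1) of the genes tested was 2.48 in BDL replicate 1 and 2.56 in BDL_H replicate 2, against 2.81 to 3.06 in the other 10. Abcb4 did not check the labels, with 129.1 to 165.3 FPKM in MDR_H, 150.1 to 181.3 FPKM in MDR, 72.1 to 178.4 FPKM in BDL_H and 52.8 to 167.8 FPKM in BDL. Y-linked genes (Uty, Ddx3y, Eif2s3y and Kdm5d, summed) had 0 to 0.016 FPKM in 5 libraries of the MDR model and 20.1 FPKM in MDR replicate 1. The 6 libraries of the ligation model had 16.1 to 19.6 FPKM. Apart from MDR replicate 1, this difference runs with the model, and it cannot be told apart from the model here. It also lies within the MDR group, while all MDR_H libraries were near 0, so MDR_H against MDR is unbalanced for it. The 10 hepatocyte markers checked summed to at least 32550 FPKM in every library.

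The 10 genes lie on separate loci, and 4 stretches of DNA just upstream of a transcription start are shown because their genes, the receptors of the VEGF and angiopoietin systems and the co-receptor Eng, carry the comparisons that follow. The sequences are RefSeq promoters of GRCm38.p6, given 5′ to 3′ on the strand of the gene and ending at the base before the start. Capitals mark GGAA or its complement TTCC, the core that ETS factors such as ERG and ETS1 bind. The Tek window is chr4:94739039-94739288 on the plus strand, that of Kdr is chr5:75978456-75978705 on the minus strand, that of Flt1 is chr5:147726012-147726261 on the minus strand and that of Eng is chr2:32646345-32646594 on the plus strand.
Tek: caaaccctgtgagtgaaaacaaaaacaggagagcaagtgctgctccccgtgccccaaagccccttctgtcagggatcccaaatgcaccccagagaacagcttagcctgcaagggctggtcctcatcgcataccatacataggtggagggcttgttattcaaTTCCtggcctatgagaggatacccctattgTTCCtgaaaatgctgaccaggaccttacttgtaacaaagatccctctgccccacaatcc
Kdr: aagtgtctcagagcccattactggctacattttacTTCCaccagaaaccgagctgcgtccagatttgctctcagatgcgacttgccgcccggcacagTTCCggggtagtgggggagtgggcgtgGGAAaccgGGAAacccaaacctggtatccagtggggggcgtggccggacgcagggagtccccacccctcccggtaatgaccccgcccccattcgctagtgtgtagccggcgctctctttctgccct
Flt1: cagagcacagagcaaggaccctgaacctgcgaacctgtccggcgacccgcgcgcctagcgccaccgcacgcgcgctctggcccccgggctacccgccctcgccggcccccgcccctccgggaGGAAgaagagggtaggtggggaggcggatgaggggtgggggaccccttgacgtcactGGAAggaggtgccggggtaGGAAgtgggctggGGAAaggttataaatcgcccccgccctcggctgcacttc
Eng: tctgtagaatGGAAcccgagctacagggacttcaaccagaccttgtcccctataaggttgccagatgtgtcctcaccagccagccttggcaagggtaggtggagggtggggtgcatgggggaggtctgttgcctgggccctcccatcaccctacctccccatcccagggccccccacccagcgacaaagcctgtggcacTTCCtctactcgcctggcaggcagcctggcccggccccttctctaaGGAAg
The core GGAA, counted on both strands, occurred 2 times in the Tek window, 4 times in that of Kdr, 4 times in that of Flt1, 3 times in that of Eng, 7 times in that of Tie1 and 4 times in that of Emcn. The 3 windows of Egfl7 held it 5, 3 and 1 times. Of 32851 mouse windows of 250 bases, 93.4% held at least 1, with a median of 3 and quartiles of 2 and 4, so that the Tie1 window and 1 Egfl7 window lay above the quartiles and the Egfl7 window with 1 match lay below them. The longer form AGGAAG, present in 29.5% of windows, occurred 2 times in the Flt1 window, 2 times in each of the Eng and Emcn windows, 1 time in that of Tie1, and 3, 1 and 0 times in those of Egfl7. It was not found in the Tek and Kdr windows shown. The letters TATAAA, present in 12.4% of windows, occurred in the Flt1 window, and GGGCGG, present in 32.7%, occurred 3 times there, 2 times in the Kdr window and 4 times in 1 Egfl7 window. The letters AGATAA, present in 10.0% of windows, were in none of the 9 windows. AGGAAG contains the core GGAA, so those counts overlap. Windows were matched for 7 of the 10 genes.

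Egfl7 carries a microRNA inside the gene, miR-126a, whose mature 3p strand is shown with its seed (bases 2 to 8) in capitals because its host is 1 of the 10 genes. It lies at chr2:26591402-26591423 on the plus strand in GRCm38.p6, the strand of Egfl7, and overlaps an exon of that gene.
mmu-miR-126a-3p: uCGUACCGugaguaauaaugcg
The microRNA itself was not analysed here. In the GENCODE M21 annotation of GRCm38, exons of Egfl7 (chromosome 2, 26580014 to 26593120, plus strand) also share 64 bases with Agpat2 on the opposite strand, a gene at 134.3 FPKM on average, and exons of Eng (chromosome 2, 32646595 to 32682669, plus strand) share 61 bases with Fpgs on the opposite strand, at 55.7 FPKM. Whether reads were counted by strand is not given in the sources used here, so some reads of these overlaps may be counted for either gene. On its own strand, Egfl7 shares 264 exon bases with the predicted gene Gm20532, which has no row in the table used here, and how reads of that stretch were counted is not given. Exons of the other 8 genes overlapped no other gene.

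Eng was the most abundant of the 10 genes in every library, at a mean of 24.5 FPKM over the 12 libraries, and Flt1 was the least, at 1.12 FPKM. Egfl7 (14.0 FPKM), Cdh5 (13.2 FPKM) and Pecam1 (11.9 FPKM) followed Eng, and their order was not fixed: Egfl7 was above Cdh5 in 7 of 12 libraries and Cdh5 above Pecam1 in 7 of 12. Pecam1 was above Ptprb (6.92 FPKM) in 12 of 12. Ptprb and Kdr (6.75 FPKM) could not be ordered, with Ptprb above in 7 of 12, and Kdr was above Tie1 (5.04 FPKM) in 10 of 12. Tie1 was above Tek (3.93 FPKM) in 12 of 12, while Tek and Emcn (3.48 FPKM) changed places, with Tek above in 7 of 12. These levels are per kilobase of the authors' gene models, whose lengths, read back from the FPKM steps, were 1479 bases for Emcn and 3339 bases for Pecam1, against 5409 and 6228 bases of annotated exon in GENCODE M21. The order between genes depends on that choice of length, whereas differences between libraries do not.

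**Figure D1:**
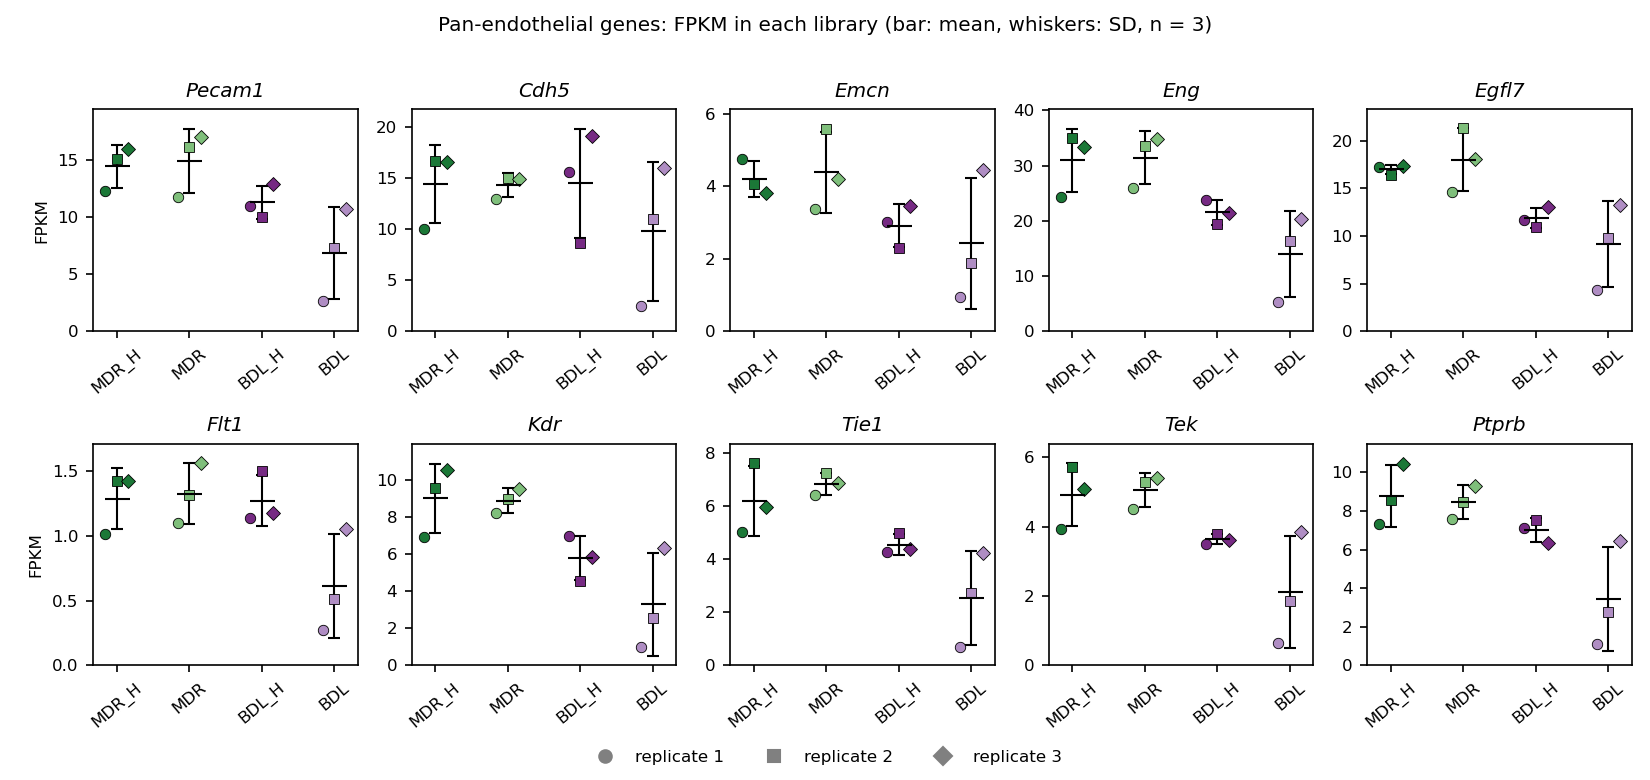
FPKM of each of the 10 genes (panels) in each library of MDR_H, MDR, BDL_H and BDL (x axis), with symbols for the replicate number, a bar for the group mean and whiskers for the SD (n = 3). BDL replicate 1, the circle in the right-most group of each panel, is the lowest of 12 libraries for all 10 genes.

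Pecam1 encodes an adhesion molecule of endothelial junctions that platelets and leukocytes also carry (chromosome 11, 106654217 to 106750628, minus strand). It had 12.3, 15.1 and 15.9 FPKM in MDR_H livers and 11.7, 16.1 and 17.0 FPKM in MDR livers. In the ligation model it had 10.9, 10.0 and 12.9 FPKM in BDL_H livers, against 2.66, 7.26 and 10.7 FPKM in BDL livers. The MDR livers lay above all BDL livers, the treated groups overlapped their untreated counterparts, and the widest spread was within BDL. Cdh5, the cadherin that ties endothelial cells to each other (chromosome 8, 104101625 to 104144511, plus strand), had 10.0, 16.7 and 16.6 FPKM in MDR_H livers and 13.0, 15.0 and 14.9 FPKM in MDR livers. It had 15.6, 8.65 and 19.1 FPKM in BDL_H livers, against 2.49, 10.9 and 15.9 FPKM in BDL livers. Unlike the other 9 genes, Cdh5 was highest of 12 libraries in a ligated liver, BDL_H replicate 3, and BDL replicate 3 lay above all 3 MDR livers, so that every pair of groups overlapped. Emcn, the sialomucin endomucin of venous and capillary endothelium (chromosome 3, 137341067 to 137432185, plus strand), had 4.76, 4.04 and 3.81 FPKM in MDR_H livers and 3.37, 5.58 and 4.20 FPKM in MDR livers. Its values were 3.00, 2.29 and 3.45 FPKM in BDL_H livers and 0.933, 1.88 and 4.44 FPKM in BDL livers. BDL replicate 3 again reached into the range of the MDR model, while the other 2 BDL livers lay below every other library.

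Kdr, the main signalling receptor for VEGF (chromosome 5, 75932827 to 75978458, minus strand), had 6.95, 9.57 and 10.6 FPKM in MDR_H livers and 8.22, 8.96 and 9.53 FPKM in MDR livers. In ligated livers it had 6.96, 4.55 and 5.87 FPKM with HDCA (BDL_H) and 0.979, 2.53 and 6.36 FPKM without (BDL). All MDR livers exceeded all BDL livers, and the treated and untreated ligated livers overlapped through BDL replicate 3. Flt1, the decoy receptor (chromosome 5, 147561604 to 147726011, minus strand), had 1.02, 1.42 and 1.42 FPKM in MDR_H livers and 1.09, 1.32 and 1.56 FPKM in MDR livers. Its level was 1.14, 1.5 and 1.18 FPKM in BDL_H livers, against 0.273, 0.509 and 1.06 FPKM in BDL livers. The 3 BDL_H livers lay within the range of the MDR livers, and all 3 lay above the BDL livers. Flt1 also gives rise to a soluble form, which a gene-level value does not separate.

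Tie1 (chromosome 4, 118471191 to 118490061, minus strand) had 5.01, 7.62 and 5.99 FPKM in MDR_H livers and 6.42, 7.25 and 6.87 FPKM in MDR livers. It had 4.27, 4.99 and 4.37 FPKM in BDL_H livers, against 0.704, 2.73 and 4.22 FPKM in BDL livers. The 2 models did not overlap, and within the ligation model all BDL_H livers lay above all BDL livers, though BDL replicate 3 lay just under the lowest BDL_H liver. Tek, the angiopoietin receptor (chromosome 4, 94739289 to 94874976, plus strand), had 3.95, 5.73 and 5.08 FPKM in MDR_H livers and 4.50, 5.29 and 5.40 FPKM in MDR livers. Its levels were 3.51, 3.79 and 3.62 FPKM in BDL_H livers, against 0.645, 1.85 and 3.84 FPKM in BDL livers. Here too the models did not overlap, but BDL replicate 3 lay above all 3 BDL_H livers. Ptprb, the phosphatase that acts on TIE2 and VE-cadherin complexes (chromosome 10, 116275523 to 116389535, plus strand), had 7.32, 8.56 and 10.5 FPKM in MDR_H livers and 7.57, 8.46 and 9.32 FPKM in MDR livers. It had 7.14, 7.53 and 6.33 FPKM in BDL_H livers, against 1.13, 2.77 and 6.43 FPKM in BDL livers. BDL_H replicate 2 lay within the range of MDR_H, and BDL replicate 3 within that of BDL_H.

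Eng encodes endoglin, the co-receptor for BMP9 that endothelial cells carry. It had 24.4, 35.0 and 33.4 FPKM in MDR_H livers and 26.0, 33.6 and 34.8 FPKM in MDR livers. Ligated livers had 23.8, 19.4 and 21.3 FPKM with HDCA (BDL_H) and 5.22, 16.3 and 20.4 FPKM without (BDL). All 6 libraries of the MDR model lay above all 6 of the ligation model. Egfl7, a protein that endothelial cells secrete into their matrix, had 17.3, 16.4 and 17.3 FPKM in MDR_H livers and 14.7, 21.3 and 18.1 FPKM in MDR livers. It had 11.7, 10.9 and 13.0 FPKM in BDL_H livers, against 4.29, 9.83 and 13.3 FPKM in BDL livers. The models again did not overlap, and BDL replicate 3 was the highest of the ligated livers.

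Summed over the 10 genes, the level was 92.9, 120.1 and 120.5 FPKM in MDR_H and 96.5, 122.9 and 121.6 FPKM in MDR, and 88.1, 73.6 and 91.2 FPKM in BDL_H against 19.3, 56.6 and 86.6 FPKM in BDL. The 3 BDL livers thus differed among themselves by more than any other group, and BDL replicate 3 lay inside the range of the BDL_H livers. BDL replicate 1 was the lowest of the 12 libraries for 10 of 10 genes, and for 42.7% of all genes tested. BDL replicate 2 was next to lowest for 9 of 10, and for 11.3% of all genes tested, the exception being Cdh5, for which BDL_H replicate 2 held that place. The members in BDL replicate 1 stood at a median of 26.5% of the mean of BDL replicates 2 and 3, from 18.5% for Cdh5 to 37.1% for Egfl7, whereas the median gene tested stood at 77.9%. BDL_H replicate 2, the other library that stood apart, did not share this: its members stood at a median of 87.1% of the mean of BDL_H replicates 1 and 3, from 49.8% for Cdh5 to 129.6% for Flt1, and its median gene at 78.5%.

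**Figure D2:**
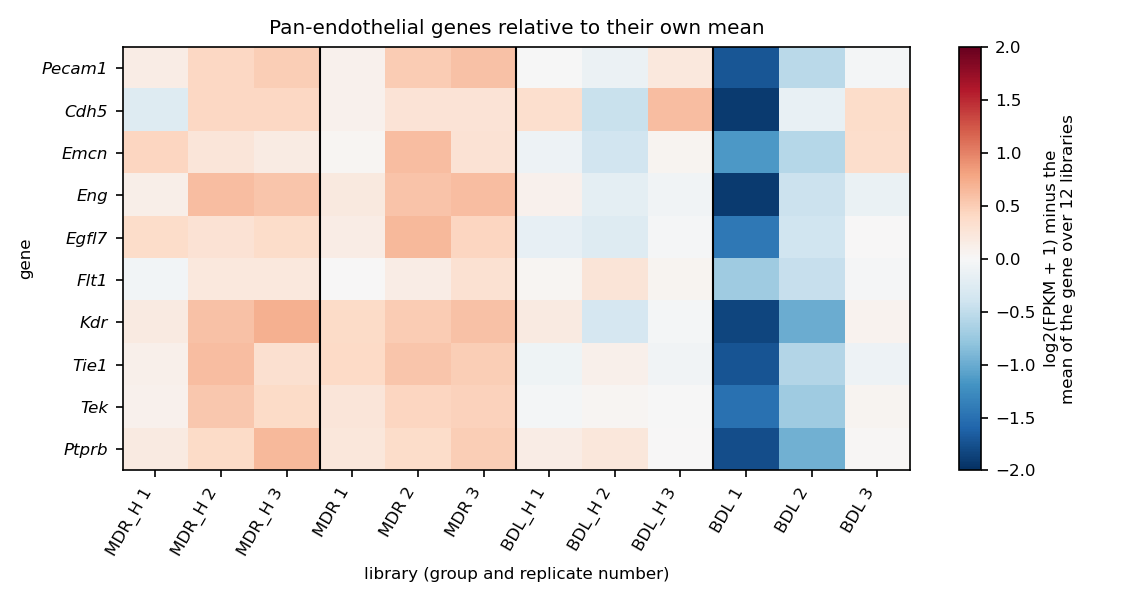
Each cell is log2(FPKM + 1) of a gene (row) in a library (column) minus the mean of that gene over the 12 libraries, with blue below and red above the mean. BDL replicate 1 is blue in every row, BDL replicate 2 is blue in all rows but fainter, and the 6 libraries of the MDR model are mostly red.

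Treated and untreated ligated livers were compared first. All 10 genes had higher means in BDL_H than in BDL, as did 58.8% of all genes tested, and none passed the test over all genes (limma adjusted p = 0.999709 for each; 0% of all genes tested were called higher and 0% lower). The log2 change of log2(FPKM + 1), which understates the change of low genes, was largest for Ptprb, at 1.03 ± 0.34 (SE), with means of 7.00 ± 0.61 FPKM in BDL_H and 3.44 ± 2.71 FPKM in BDL (SD, n = 3). Among the receptors it was 0.85 ± 0.36 for Kdr, 0.78 ± 0.31 for Tie1, 0.71 ± 0.30 for Tek and 0.52 ± 0.17 for Flt1. At the junctions it was 0.79 ± 0.33 for Pecam1 and 0.73 ± 0.48 for Cdh5, and it was 0.77 ± 0.36 for Eng, 0.46 ± 0.29 for Egfl7 and 0.32 ± 0.30 for Emcn. The median over the 10 genes was 0.75, beside 0.03 over all genes tested. An unadjusted p under 0.05 was reached by 6 of 10 (Pecam1, Tek, Tie1, Flt1, Kdr and Ptprb), beside 1.73% of all genes tested on the higher side. That count was 2 without BDL replicate 1 and 2 with only the libraries compared. It was 0 without both BDL replicate 1 and BDL_H replicate 2, and 10 without BDL replicate 3. A limma-voom fit on the recovered reads called none of the 10 either. The groups did not overlap for Tie1 and Flt1, 2 of 10 beside 3.43% of all genes. Leaving out BDL replicate 1 brought the median to 0.32, with 9 of 10 higher. Without that library the change was 0.59 ± 0.24 for Ptprb, 0.40 ± 0.28 for Kdr, 0.36 ± 0.16 for Flt1, 0.06 ± 0.30 for Cdh5, 0.05 ± 0.16 for Egfl7 and -0.03 ± 0.26 for Emcn.

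In the MDR model no difference between treated and untreated livers passed the test for these genes. The log2 change ran from -0.14 ± 0.31 (SE) for Tie1 to 0.04 ± 0.34 for Ptprb, with 8 of 10 genes lower and 2 higher (36% of all genes tested were higher) and a median of -0.03, beside -0.04 over all genes. None was called (limma adjusted p = 0.999882 for each; 0% of all genes were called in either direction), and 0 of 10 reached an unadjusted p under 0.05, beside 0.259% of all genes on the higher and 0.305% on the lower side. The precision was limited. With the spread estimated over all 12 libraries, the 95% interval of the log2 change was -0.40 to 0.35 for Flt1, -0.69 to 0.60 for Tek, -0.79 to 0.80 for Kdr and -1.07 to 1.03 for Cdh5. These limits rest on the ligated livers too: without BDL replicate 1 the SE in the MDR model was 0.27 for Cdh5, 0.18 for Pecam1 and 0.18 for Tek, against 0.48, 0.33 and 0.30 with it, and with only the 6 livers of the MDR model it was 0.19 for Cdh5 and 0.15 for Kdr. The changes themselves were the same in these fits, and none was called. Y-linked genes were at 20.1 FPKM in MDR replicate 1 and near 0 in the other libraries of this model. Without MDR replicate 1 the median was -0.13, with 10 of 10 genes lower and none called. The HDCA effect in the MDR model minus that in the ligation model was negative for all 10 genes, from -0.99 ± 0.48 for Ptprb to -0.35 ± 0.43 for Emcn, while 35% of all genes had a positive difference. None was called (limma adjusted p = 0.999921 for each; 0% of all genes), and Flt1 alone had an unadjusted p under 0.05 (0.0453 in limma, for -0.54 ± 0.24), beside 1.38% of all genes on the negative side. HDCA was given for 4 days in 1 model and 21 days in the other, so model and length of treatment cannot be told apart here. Without BDL replicate 1 the median difference over the 10 genes was -0.36, against -0.78 with it.

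**Figure D3:**
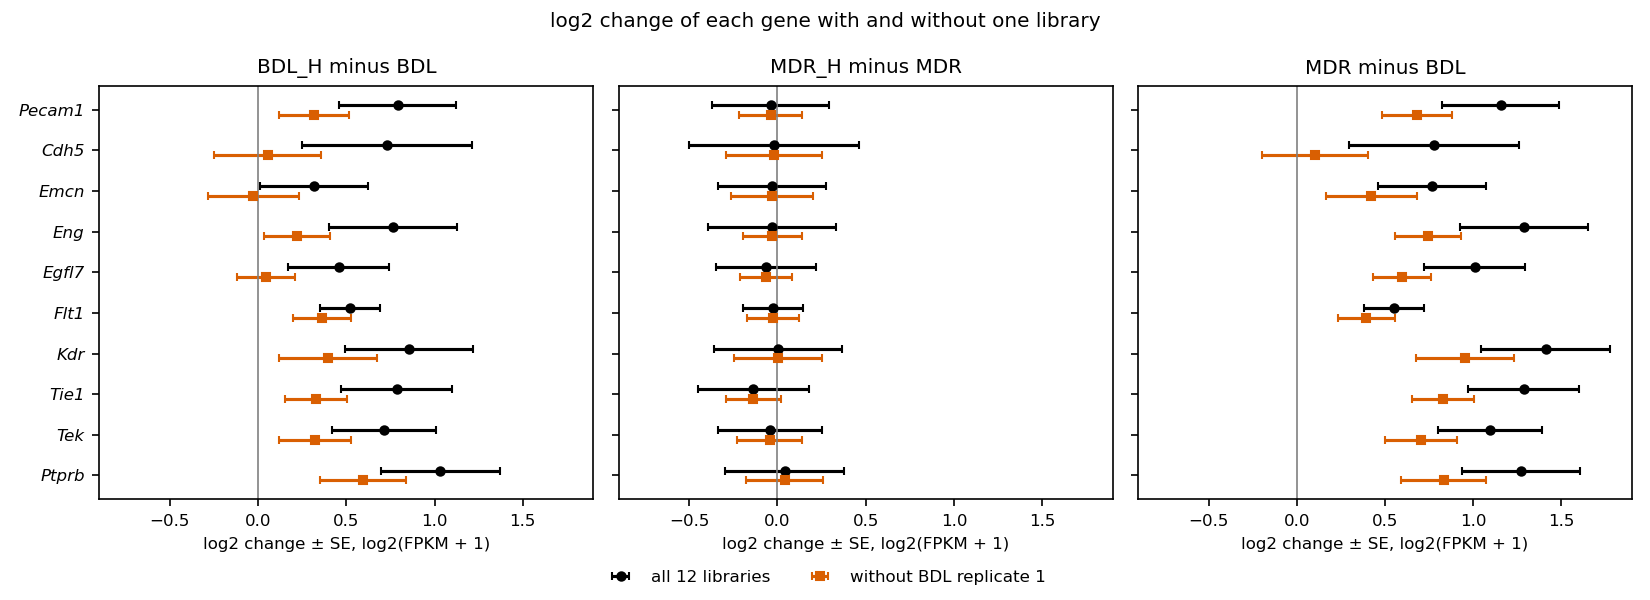
Log2 change of log2(FPKM + 1) with its SE (x axis) for each gene (rows) in BDL_H minus BDL, MDR_H minus MDR and MDR minus BDL, from limma. Black points use all 12 libraries and orange squares leave out BDL replicate 1, which moves the left and right panels towards 0 and leaves the points of the middle panel where they were.

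The untreated models differed most. This comparison shares the 3 BDL livers with that of BDL_H and BDL, so the pair is not independent. All 10 genes had a higher mean in MDR, as did 83.6% of all genes tested. Of the 10 genes, 8 were higher in MDR than in BDL livers (limma adjusted p under 0.05), and none was lower, where 15.1% of all genes tested were called higher and 1.07% lower. The VEGF receptor Kdr had the largest difference, 1.41 ± 0.36 (SE) on the log2 scale, with means of 8.90 ± 0.66 FPKM in MDR and 3.29 ± 2.77 FPKM in BDL (SD, n = 3; adjusted p = 0.0263). Tie1 differed by 1.29 ± 0.31, with 6.84 ± 0.41 FPKM in MDR and 2.55 ± 1.77 FPKM in BDL (limma adjusted p = 0.0209), and Tek by 1.10 ± 0.30 (adjusted p = 0.0306). Ptprb differed by 1.27 ± 0.34 (adjusted p = 0.0292) and Eng by 1.29 ± 0.36 (adjusted p = 0.0359), with Eng at 31.5 ± 4.8 FPKM in MDR and 14.0 ± 7.8 FPKM in BDL. Pecam1 differed by 1.16 ± 0.33 (limma adjusted p = 0.0380), Egfl7 by 1.01 ± 0.29 (adjusted p = 0.0363) and Flt1, at a low level, by 0.55 ± 0.17 (adjusted p = 0.0495). Cdh5 (0.78 ± 0.48, adjusted p = 0.261) and Emcn (0.77 ± 0.30, adjusted p = 0.103) did not pass. The groups did not overlap for 8 of 10 genes, the 8 that were called, where 39.2% of all genes were higher without overlap. The median over the 10 genes was 1.13, beside 0.25 over all genes.

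How many of the 10 were called depended on the libraries and the scaling. It was 8 in limma-voom on the recovered reads, where 1472 of all genes were called higher. It was 9 without BDL replicate 3, 6 without MDR replicate 1 and 7 without both BDL replicate 1 and BDL_H replicate 2. Leaving out 1 library called 489 to 2346 of all genes. Scaling by median-of-ratios size factors gave a median of -0.05 over all genes and 0.85 over the 10, a gap of 0.90 where the deposited scale had 0.87, and called 2 of 10, Tie1 and Kdr. All calls then split into 640 higher and 486 lower, where the deposited scale had 1630 higher and 116 lower. Quantile normalization, with a median of -0.02 over all genes, called the same 2. Without BDL replicate 1 the median over the 10 genes was 0.69, and 3 were called: Tie1 (0.83 ± 0.18 (SE), limma adjusted p = 0.0187), Eng (0.74 ± 0.19) and Egfl7 (0.60 ± 0.16). Leaving out MDR replicate 2 or MDR replicate 3 called 0 of 10, leaving out BDL replicate 2 called 2, leaving out MDR_H replicate 2 or MDR_H replicate 3 called 4, leaving out BDL_H replicate 1 called 5, and fitting only the 6 libraries compared called 0. Calls over all genes fell as well, to 452 higher without MDR replicate 2, 626 without MDR replicate 3 and 812 without BDL replicate 2. Fitting only the 6 libraries gave 650, against 1630 in the main fit. In each of these fits 8 of 10 members had an unadjusted limma p under 0.05, beside 2534 to 3379 of 10805 genes. The main fit had 9 of 10, beside 3708 genes. The members' median lay between 1.06 and 1.18 in these fits. Each of the 10 genes was higher in MDR under every alternative in which it was tested.

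Taking treated and untreated livers together, 7 of 10 genes were higher in the MDR model (limma adjusted p under 0.05; 32.6% of all genes were called higher and 3.02% lower), and all 10 had a higher mean, as had 82.2% of all genes. The log2 differences were 0.99 ± 0.26 (SE) for Kdr (adjusted p = 0.0139), 0.89 ± 0.26 for Eng, 0.83 ± 0.22 for Tie1, 0.78 ± 0.24 for Ptprb, 0.75 ± 0.20 for Egfl7, 0.74 ± 0.23 for Pecam1 and 0.72 ± 0.21 for Tek. Not called were Emcn, at 0.59 ± 0.22 (limma adjusted p = 0.0511), Cdh5, at 0.40 ± 0.34 (adjusted p = 0.359), and Flt1, at 0.28 ± 0.12 (adjusted p = 0.0902). All 6 livers of the MDR model lay above all 6 of the ligation model for Tek, Tie1, Egfl7 and Eng, 4 of 10 genes beside 19.4% of all genes. The median was 0.74, beside 0.22 over all genes. Without BDL replicate 1 the same 7 genes were called and the median was 0.53. Median-of-ratios scaling called 1, Kdr, and the directions of all 10 held under it; calls over all genes split into 1186 higher and 1488 lower, where the deposited scale had 3524 higher and 326 lower. Leaving out MDR replicate 2 called 3 and leaving out MDR_H replicate 2 called 4. Quantile normalization turned Flt1 to -0.07, and leaving out both BDL replicate 1 and BDL_H replicate 2 turned Cdh5 to -0.09.

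A ratio of 2 of these genes within a library is the same on any scaling of that library, and 7 such ratios were compared in 3 comparisons, 21 exact permutation tests in all. None passed after adjustment, and 2 of the 21 had an unadjusted p under 0.05. Flt1 to Kdr had the smallest p: the ratio was 0.133 to 0.164 in the 6 livers of the MDR model and 0.164 to 0.330 in the 6 of the ligation model, a difference of mean log2 ratio of -0.57 (exact permutation test, two-sided, p = 0.00433, adjusted p = 0.0909). The highest ratios were in BDL_H replicate 2 (0.330) and BDL replicate 1 (0.279), and the highest value of the MDR model lay just above the lowest of the ligation model. The ratio of Eng to Cdh5 was 2.00 to 2.43 in the MDR model and 1.12 to 2.24 in the ligation model (log2 difference 0.47, exact permutation p = 0.0281, adjusted p = 0.295). The 4 ligated livers other than BDL replicate 1 and BDL_H replicate 2 lay between 1.12 and 1.52. Without those 2 libraries, the ratios to Cdh5 of Pecam1 (0.60), Eng (0.70), Egfl7 (0.64) and Ptprb (0.78) and that of Flt1 to Kdr (-0.33) passed, given as log2 differences (exact permutation tests, adjusted p under 0.05). For Pecam1, Eng and Egfl7 to Cdh5, those 2 were the ligated livers that reached into the MDR range. Leaving them out removed that overlap, so a pass was close to fixed in advance. For Ptprb to Cdh5 the highest ligated value, 0.871 in BDL_H replicate 2, was left out as well. Tie1 to Tek lay between 1.09 and 1.47 in all 12 libraries. For HDCA the smallest p that 3 against 3 libraries allow is 0.1, and no ratio reached it in either model. Cdh5 made up 10.8 to 13.9% of the summed level of the 10 genes in the MDR model and 11.7 to 21.0% in the ligation model.

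**Figure D4:**
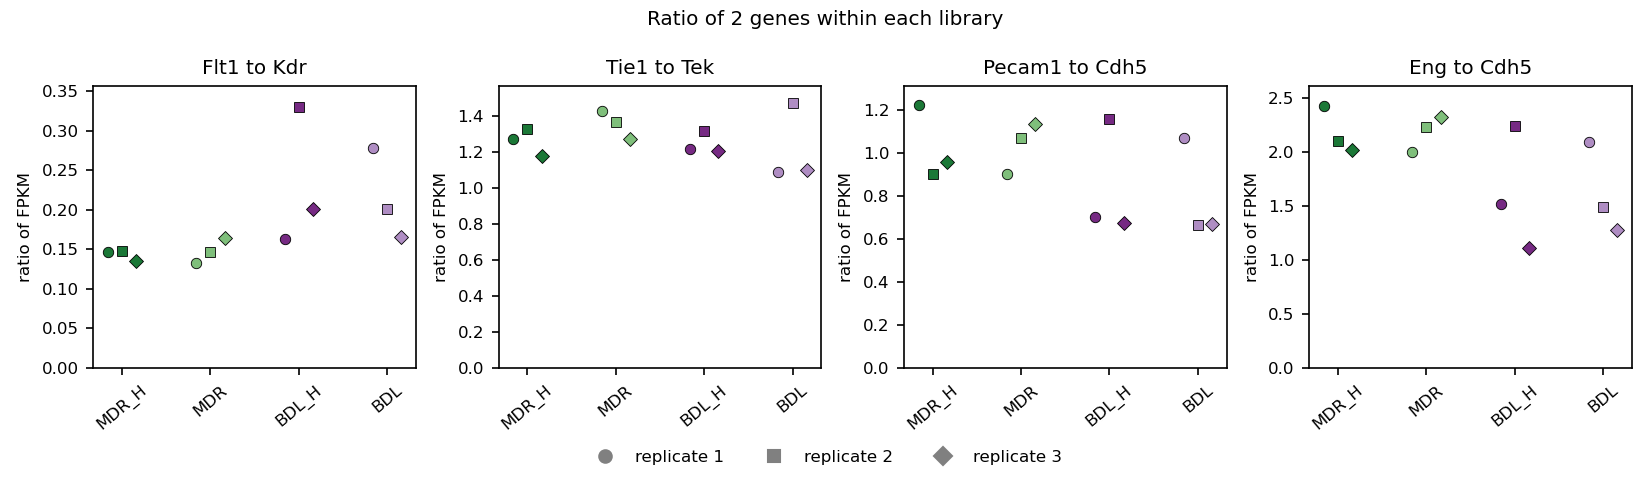
Ratio of the FPKM of 2 genes within each library (y axes) by group (x axes), with symbols for the replicate number. Flt1 to Kdr is 0.133 to 0.164 in the 6 livers of the MDR model, at the low end of the plot, Tie1 to Tek lies between 1.09 and 1.47, and the ratios of Pecam1 and Eng to Cdh5 are low in 4 of the 6 ligated livers.

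The likeness between patterns was measured as the root mean square difference of log2(FPKM + 1), each gene centred on its own mean over the 12 libraries. Tie1 and Tek were the closest pair (0.111), followed by Pecam1 and Eng (0.134). The members least like the mean of the other 9 were Flt1 (0.346) and Cdh5 (0.339), and the closest was Tek (0.0886). This scale understates the changes of low genes, and Flt1, at a mean of 1.12 FPKM, was the lowest of the 10. How far the distance of Flt1 reflects that low level was not tested. Among the 10795 other genes tested, the 10 nearest to the members' mean profile, predicted genes passed over, were Ets1 (0.0735), Plxnc1 (0.0978), Stab1 (0.12), C1qtnf1 (0.121), Mrc1 (0.125), Tspan7 (0.142), Rcn1 (0.147), Flt4 (0.156), Mmrn2 (0.156) and Pde2a (0.166), where the median gene was at 0.484. Ets1 is an ETS transcription factor, Stab1 and Mrc1 are scavenger receptors of sinusoidal endothelium that macrophages also carry, Flt4 is the receptor for VEGF-C, and Mmrn2 is an endothelial matrix protein. Ets1 averaged 6.98 ± 1.21 FPKM in MDR_H, 7.09 ± 0.84 FPKM in MDR, 4.93 ± 0.42 FPKM in BDL_H and 3.02 ± 2.13 FPKM in BDL (SD, n = 3), with 1.01 FPKM in BDL replicate 1, its lowest library as well. The points share these 12 libraries and their depth.

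The ligands and co-receptors of these receptors were read from a list of 16 genes, of which 11 were tested. In untreated livers 7 were called higher in MDR than in BDL and none was called lower, with a median log2 difference of 0.93. Over all genes 15.1% were called higher and 1.07% lower, with a median of 0.25. Vegfc, the ligand of VEGFR3, averaged 3.99 ± 0.77 FPKM in MDR and 1.39 ± 0.35 FPKM in BDL (SD, n = 3), a difference of 1.06 ± 0.19 (SE; limma adjusted p = 0.00691). Vegfd, which encodes another ligand of that receptor, differed by 1.02 ± 0.19 (adjusted p = 0.00763), Gdf2, which encodes BMP9, the ligand of endoglin, by 1.11 ± 0.23 (adjusted p = 0.0109) and Nrp2, a VEGF co-receptor, by 0.93 ± 0.20 (adjusted p = 0.0133). Vegfa, the ligand of VEGFR1 and VEGFR2, did not follow: it averaged 11.3 ± 1.5 FPKM in MDR and 15.2 ± 4.1 FPKM in BDL, a difference of -0.38 ± 0.19 that was not called (limma adjusted p = 0.171). Angpt1 and Angpt2, the ligands of TIE2, were under the filter, at 0.589 ± 0.339 and 0.540 ± 0.163 FPKM in MDR and 0.181 ± 0.070 and 0.259 ± 0.092 FPKM in BDL. With HDCA none of the 11 was called in either model. Between untreated models 4 of the 11 were called without BDL replicate 1, 4 under median-of-ratios scaling and 2 with only the 6 libraries compared.

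Other endothelial genes were read from 6 lists, to be set beside 83.6% of all genes with a higher mean in MDR and 15.1% called higher. A higher mean in MDR was found for 16 of 17 junction partners, 20 of 20 other receptors and signalling genes, 11 of 16 transcription factors, 14 of 14 sinusoidal genes, 14 of 15 genes of large, capillarized or activated vessels and 6 of 7 lymphatic genes. Of 17 junction partners tested, 5 were called higher in MDR than in BDL, among them Cd34 (2.06 ± 0.30 (SE), limma adjusted p = 0.00293), the tight junction protein gene Cldn5 (1.18 ± 0.18), Podxl (1.07 ± 0.27) and Icam2 (0.95 ± 0.28), with a median of 0.57. Of 20 other endothelial receptors and signalling genes, 13 were called higher, with a median of 0.88, among them Clec14a (1.69 ± 0.27), Ednrb (1.13 ± 0.20), the Notch ligand gene Dll4 (1.08 ± 0.22) and Gpihbp1 (1.16 ± 0.25). Of 16 endothelial transcription factors, 8 were called higher and 1, Id1 (-0.83 ± 0.22, limma adjusted p = 0.0278), was called lower, with a median of 0.62. The ETS factor genes Elk3 (1.35 ± 0.23) and Erg (1.07 ± 0.21), and Sox18 (1.25 ± 0.27) and Nr2f2 (0.81 ± 0.16) had the smallest p. Of 14 sinusoidal genes 8 were called higher (median 0.95), led by Ntn4 (1.46 ± 0.29), Stab1 (1.10 ± 0.29), Mrc1 (1.03 ± 0.27) and Rspo3 (0.75 ± 0.20). Of 15 genes of large, capillarized or activated vessels 8 were called higher (median 0.95), led by Ly6c1 (1.79 ± 0.20), Gja5 (1.44 ± 0.20), Vwf (1.18 ± 0.21) and Esm1 (0.95 ± 0.20). Of 7 lymphatic genes 4 were called higher, with Ccl21a at 3.73 ± 0.28 and Mmrn1 at 1.61 ± 0.20. Without BDL replicate 1 the counts were 2 of 17, 6 of 20, 7 of 16 in both directions together, 3 of 14, 7 of 15 and 4 of 7, in the same order of lists. Median-of-ratios scaling called 3 of 17, 5 of 20, 5 of 16, 1 of 14, 6 of 15 and 4 of 7, and fitting only the 6 libraries compared called 2 of 17, 3 of 20, 3 of 16, 1 of 14, 4 of 15 and 3 of 7. The sinusoidal count was thus 1 under both, against 8 on the deposited scale with all 12 libraries. Array weights called 13 of 14, with 4947 genes called. Calls over all genes fell from 1630 higher to 640 under median-of-ratios scaling and 650 with only the 6 libraries. An unadjusted limma p under 0.05 was reached by 11 of 14 sinusoidal genes under both, against 12 in the main fit. Over all 10805 genes it was reached by 2923 and 3355, against 3708.

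HDCA in ligated livers called no gene of these lists either. The lists share genes, so their medians are not independent. Lyve1 is in the sinusoidal and lymphatic lists, Flt4 in the lymphatic and ligand lists, and Reln in the lymphatic and stellate cell lists. Reln, at 0.81, is the median gene of the lymphatic list. The medians were 0.67 for the sinusoidal list with 14 of 14 genes higher, 0.81 for the lymphatic list with 7 of 7, 0.45 for the other receptors with 19 of 20, 0.33 for the large vessel list with 14 of 15, 0.17 for the transcription factors with 13 of 16 and 0.15 for the junction partners with 14 of 17, beside 0.75 for the 10 genes above and 0.03 for all genes. The smallest p among them belonged to Gpihbp1, at 1.2 ± 0.25 (SE), with 32.3 ± 0.2 FPKM in BDL_H and 14.5 ± 6.3 FPKM in BDL (SD, n = 3; limma adjusted p = 0.999709).

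Markers of other liver cell types also differed between groups, and their part in the results above was not tested. Between untreated models, 15.1% of all genes tested were called higher in MDR, and the median log2 difference was 0.25. Of 12 hepatic stellate cell genes 11 were called higher, with a median of 1.51, led by Rgs5 (2.41 ± 0.30 (SE)), Colec11 (1.87 ± 0.23), Dcn (1.82 ± 0.24) and Pdgfrb (1.70 ± 0.29). Their summed level was 328 to 387 FPKM in MDR_H, 258 to 411 FPKM in MDR, 129 to 163 FPKM in BDL_H and 68.8 to 134 FPKM in BDL. Of 4 pericyte and smooth muscle genes 2 were called higher, Rgs5 and Mylk. The 8 genes of that list summed to 53.0 to 62.2 FPKM in MDR_H, 50.9 to 72.2 FPKM in MDR, 26.1 to 51.1 FPKM in BDL_H and 13.2 to 29.0 FPKM in BDL. Median-of-ratios scaling and the fit of only the 6 libraries compared each called 9 of 12 stellate cell genes and 1 of 4 pericyte and smooth muscle genes. The sums of both lists, which share Rgs5, thus separated MDR from BDL without overlap, as did 8 of the 10 endothelial genes. Of all genes tested, 39.2% were higher in MDR without overlap.

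Of 9 cholangiocyte genes 6 were called higher in MDR than in BDL (median 1.06), Epcam by 1.75 ± 0.25 (SE), where 15.1% of all genes were called higher. The list summed to 279 to 395 FPKM in MDR_H, 349 to 537 FPKM in MDR, 137 to 369 FPKM in BDL_H and 127 to 422 FPKM in BDL. Of 9 leukocyte genes 1, the B cell gene Cd79a, was called higher (median 0.76), with sums of 206 to 258 FPKM in MDR_H, 187 to 304 FPKM in MDR, 84.4 to 226 FPKM in BDL_H and 77.1 to 178 FPKM in BDL. The cholangiocyte sums of MDR and BDL overlapped, and the leukocyte sums did not. Of 10 Kupffer cell genes 1, C1qa, was called higher (median 0.49), with sums of 650 to 722 FPKM in MDR_H, 530 to 782 FPKM in MDR, 311 to 711 FPKM in BDL_H and 276 to 612 FPKM in BDL. Of 10 hepatocyte genes 1, Apoa1, was called lower and none was called higher (median -0.35), with sums of 32550 to 49900 FPKM in MDR_H, 36392 to 42368 FPKM in MDR, 48708 to 63805 FPKM in BDL_H and 52388 to 57406 FPKM in BDL. The hepatocyte list was thus the one with its highest sums in ligated livers. The single calls among leukocyte and Kupffer cell genes stand beside 15.1% of all genes called higher, and that among hepatocyte genes beside 1.07% called lower. A higher mean in MDR was found for 8 of 9 cholangiocyte, 9 of 9 leukocyte, 7 of 10 Kupffer cell and 3 of 10 hepatocyte genes, beside 83.6% of all genes. Without BDL replicate 1 no Kupffer cell gene and no hepatocyte gene was called, and with only the 6 libraries compared no Kupffer cell gene was. A fit with array weights, which gives less variable libraries more weight, called 4 hepatocyte genes lower, 4 Kupffer cell genes higher and 1 lower, and 4 leukocyte genes higher. Of the cholangiocyte genes 5 were called without BDL replicate 1 and 4 under median-of-ratios scaling.

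Platelets carry PECAM-1, and of 10 platelet and megakaryocyte genes only Pf4 and Itgb3 were abundant enough to test. Pf4 was higher in MDR by 1.30 ± 0.36 (SE; limma adjusted p = 0.0340), a call that was lost under median-of-ratios scaling and with only the 6 libraries compared. The list summed to 7.20 to 8.20 FPKM in MDR_H, 3.73 to 9.76 FPKM in MDR, 2.79 to 6.29 FPKM in BDL_H and 1.99 to 3.37 FPKM in BDL. Gp5 and Treml1 were listed at 0 in all 3 BDL livers and Gp9 in all 3 MDR livers. With HDCA in ligated livers, the median was 0.37 for stellate cell genes (12 of 12 higher), 0.72 for pericyte and smooth muscle genes (4 of 4), 0.20 for leukocyte genes (9 of 9), 0.45 for the 2 platelet genes, 0.02 for Kupffer cell genes, 0.07 for cholangiocyte genes and -0.05 for hepatocyte genes, with none called.

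**Figure D5:**
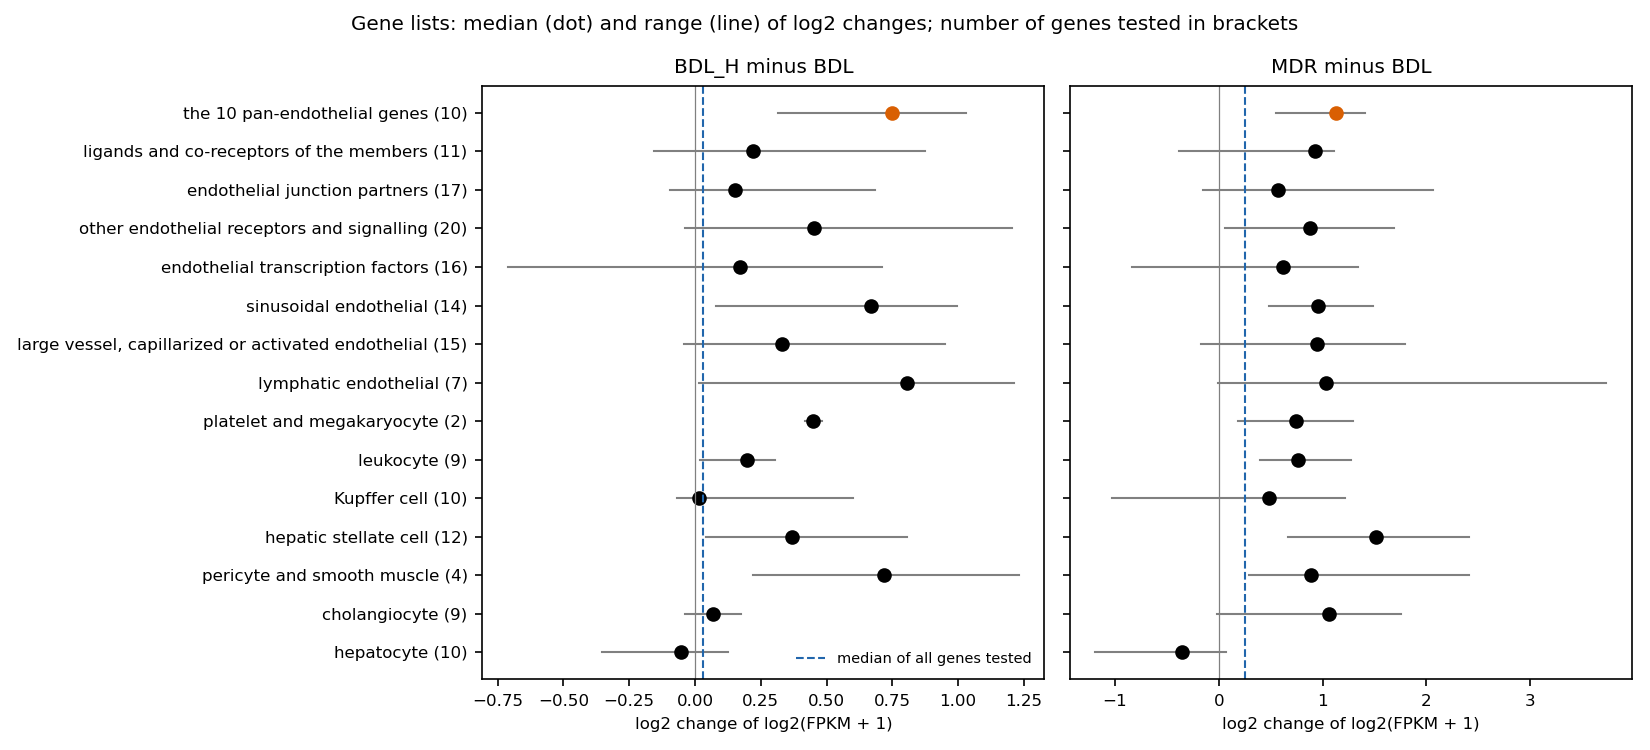
Median (dot) and range (line) of the log2 changes of each gene list, with the number of genes tested in brackets, for BDL_H minus BDL and MDR minus BDL; the dashed line is the median of all genes tested (0.03 and 0.25). The 10 pan-endothelial genes (orange) sit at 0.75 and 1.13, and the stellate cell list has the highest median in MDR minus BDL, at 1.51.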

How the data were processed

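Liver polyA RNA of 12 libraries in 4 groups of 3 was measured by RNA-seq. The authors deposited 1 table of FPKM values. The submitters' processing notes name, with no order, featureCounts 1.5.0-p3, HISAT2 2.0.5, DESeq2 1.20.0, CASAVA 1.8 and fastp, and build GRCm38; the sources used here do not give the annotation release or the strand setting. Groups and replicate numbers come from the sample titles. The 10 genes and the 14 lists beside them were chosen with earlier results of these data known, and some genes are in more than 1 list. List genes are named where they are among the 4 with the smallest p in a comparison; Vegfa, Angpt1, Angpt2 and Id1 were named after their values were seen, and the 10 nearest genes leave out predicted genes.

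Values were transformed as log2(FPKM + 1). A gene was tested where 3 or more of the 12 libraries had an FPKM of 1 or more, which 10805 did. limma 3.58.1 (R 4.3.3) was fitted with a mean-variance trend to 4 group means over all 12 libraries, leaving 8 residual degrees of freedom, and its p-values were adjusted by the Benjamini-Hochberg method across those genes. Calls are at an adjusted p under 0.05, and SE is limma's moderated standard error. The fit was also run on simulated reads with the same spread for every gene and no low library. That run therefore does not bear on the calls in these data. Ratios were tested by exact permutation over libraries (numpy 2.4.6), two-sided, adjusted over 21 tests. Reads were recovered from the FPKM steps, whole within 0.02 of a read for 16968 of 16970 genes.

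Whether replicate numbers pair libraries was checked from the values, since no label says what they mark. The correlation of deviations from group means between libraries of 1 number was 0.438, 0.312 and 0.548 for MDR_H with MDR. It was -0.43, -0.382 and 0.431 for BDL_H with BDL and -0.201, -0.149 and -0.244 for MDR with BDL. Unlike numbers ran from -0.462 to 0.01 for MDR_H with MDR, but reached 0.548 for BDL_H replicate 2 with BDL replicate 1. These values do not settle whether numbers mark pairs. The main fit used no pairing, and the replicate block among the alternatives paired libraries by number in both models. Promoters and the microRNA are from RefSeq (GRCm38.p6) and gene coordinates from GENCODE M21. Alternatives were another pseudocount, filter, normalization, test, set of libraries, weights and a replicate block.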

Additional observations from a re-analysis of the deposited data

How the results depend on the processing

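For HDCA in ligated livers no member was called under any alternative. The median log2 change of the 10 genes was 0.32 to 1.12 when 1 library was left out and 0.30 without both BDL replicate 1 and BDL_H replicate 2; array weights called 1 gene of all tested. Emcn ran from -0.028 to 0.72. For HDCA in the MDR model, where all values lie near 0, signs turned: quantile normalization gave Cdh5 0.0255, Tek 0.0012, Flt1 0.0156 and Emcn 0.0126, median-of-ratios scaling gave Pecam1 0.0018, Cdh5 0.0202, Flt1 0.0013, Eng 0.0126 and Emcn 0.0041, and array weights gave Cdh5 0.069. Leaving out 1 library gave ranges of -0.19 to 0.066 for Pecam1, -0.13 to 0.20 for Cdh5, -0.14 to 0.080 for Tek, -0.097 to 0.064 for Flt1, -0.11 to 0.16 for Kdr, -0.20 to 0.059 for Egfl7, -0.16 to 0.13 for Eng, -0.080 to 0.15 for Ptprb and -0.17 to 0.12 for Emcn.

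Between untreated models, members called were 4 with no filter on low values, 5 with a mean FPKM of at least 5 (616 genes), 2 under quantile normalization (941 genes), 2 under median-of-ratios scaling (1126 genes), 0 with only the libraries compared (729 genes) and 9 with array weights (4947 genes). Leaving out 1 library gave 0 to 9 members, 489 to 2346 genes and a median of 0.69 to 1.5; without both low libraries the median was 0.69. Over both arms, members called were 4 under quantile normalization, with Flt1 at -0.067, 1 under median-of-ratios scaling and 3 to 9 without 1 library; Cdh5 was -0.088 without both low libraries and up to 0.64 without BDL replicate 3, and a mean FPKM of at least 5 called 1983 genes. Beyond the filters, which test other genes, the cause was not tested. With the replicate block, which pairs libraries of 1 number, members called were 0 for HDCA in either model, 8 between untreated models (1351 genes) and 7 over both arms (3323 genes), so it changed no count of members.

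Ratios called over both arms were 1 with a pseudocount of 1 FPKM, 0 to 3 without 1 library and 5 without both low libraries. For HDCA in ligated livers, Flt1 to Kdr was -0.33 with the pseudocount, -0.012 without both and -0.22 to 0.29 without 1 library; Tie1 to Tek was -0.072 without both and -0.032 to 0.18 without 1; Eng to Cdh5 was 0.034 with the pseudocount and -0.28 to 0.22 without 1; Pecam1 to Cdh5 was -0.18 to 0.30 without 1. In the MDR model the ranges without 1 library were -0.12 to 0.031 for Flt1 to Kdr, -0.15 to 0.070 for Pecam1 to Cdh5, -0.34 to 0.18 for Emcn to Cdh5, -0.084 to 0.049 for Eng to Cdh5, -0.30 to 0.10 for Egfl7 to Cdh5 and -0.050 to 0.20 for Ptprb to Cdh5. A planned edgeR fit on recovered reads was not run, since the deposited unit is FPKM; limma-voom on those reads called 8 and 9 members between models. Emcn, with 54 to 308 reads a library, rests on the fewest reads of the 10.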
